A study of Canis lupus familiaris with 15 samples.

Results

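S100A1 and S100A4 are small calcium-binding proteins whose genes lie close together in the S100 cluster, and the expression of both was followed here across 3 canine mammary tumour cell lines. The members were taken by gene symbol: 2 of the 5246 genes named on the array, each with 1 probe. Each of 15 cDNA arrays compared a pair of lines with 2 dyes, with 5 arrays for each of the 3 pairs. P114 came from a primary anaplastic carcinoma of the mammary gland, CMT-U229 from a benign mixed tumour, which holds epithelial and mesenchymal elements, and CMT-U335 from a primary osteosarcoma of the mammary gland. All lines were harvested near confluence, and the labels name no treatment. The labels name no genotype, passage or clone, and each tumour type is represented by a single line, so line and tumour type cannot be told apart. Both genes were chosen by their ratios on these same 15 arrays, where they stood out in pairs with CMT-U229, so those ratios are described and not tested.

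S100 proteins are EF-hand proteins that mostly work as dimers: on binding calcium they expose a surface that docks onto partner proteins. S100A1 is best known from heart and skeletal muscle, where it binds the calcium release channel and the calcium pump of the sarcoplasmic reticulum. S100A4, also named metastasin or fibroblast-specific protein, binds the heavy chain of non-muscle myosin, is used as a marker of fibroblasts, and is linked to cell motility and metastasis in mammary tumours of mice and humans.

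All values are log2 ratios of the first-named line over the second, so 1 unit is a doubling and 0 is equality. They are ratios within an array and give no level of a gene in a single line. The numerator of the deposited ratios is not stated in the sources used here. Cy5 was taken as the numerator because the labels list it as channel 1, so each direction is likely and not settled, and under the opposite reading every sign would turn. Under this reading the epithelial genes EPCAM, an adhesion molecule, and KRT18, a keratin, were higher in the carcinoma line P114 than in the osteosarcoma line CMT-U335 (3.55 ± 0.43 and 3.48 ± 0.53, SD, n = 5), and COL1A2, a chain of the type I collagen of bone, was lower (-1.39 ± 0.38, SD, n = 5). COL1A2 was also lower in CMT-U229 than in CMT-U335 (-3.39 ± 0.64, SD, n = 5). Other mesenchymal markers were mixed in P114 over CMT-U335. ZEB1 was lower in P114 as COL1A2 was (-0.91 ± 0.34, SD, n = 5). FN1 (1.19 ± 0.56), COL3A1 (0.69 ± 0.28) and SPARC (0.56 ± 0.47, SD, n = 5 each) were higher in P114. Per the labels, the 5 arrays within a pair are biological replicates, but the series design mentions dye swaps and at least 1 biological replicate. Some arrays may therefore repeat the same RNA, and p-values then cover only the spread among arrays. Arrays 1 and 3, and 2 and 5, of P114 over CMT-U229 looked like dye swaps of one RNA, as did 2 and 3, and 4 and 5, of CMT-U229 over CMT-U335: the median share of a gene's variation lying within these couples was 0.0507 and 0.107. For P114 over CMT-U335 the best couples (1 and 3, 4 and 5) were unclear, with a share of 0.402 against 0.484 for the next best.

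S100A1 stood high in CMT-U229, from the benign mixed tumour, and the other two lines lay close together. On the arrays of P114 over CMT-U229 its log2 ratios were -2.66, -1.11, -3.11, -1.07 and -1.90 in replicates 1 to 5. All 5 were below 0, so S100A1 was lower in P114 on every array, but by amounts that varied widely. The mean was -1.97 ± 0.91 (SD, n = 5), which makes S100A1 3.92-fold lower in P114. On the arrays of CMT-U229 over CMT-U335 the ratios were 2.13, 2.61, 2.33, 1.19 and 0.71. S100A1 was thus higher in CMT-U229 on all 5, again with a wide spread. This mean was 1.79 ± 0.81 (SD, n = 5), a 3.47-fold difference. On the arrays of P114 over CMT-U335 the values were -0.10, 0.08, 0.19, 0.06 and -0.04, scattered on both sides of 0. Their mean was 0.04 ± 0.11 (SD, n = 5), a difference below the spread between arrays.

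S100A4 showed the opposite arrangement, low in CMT-U229. On the arrays of P114 over CMT-U229 its log2 ratios were 1.49, 1.43, 1.41, 1.79 and 1.57. All 5 were above 0 and close to each other. The mean of 1.54 ± 0.16 (SD, n = 5) is a 2.90-fold higher level in P114. On the arrays of CMT-U229 over CMT-U335 the ratios were -0.84, -1.32, -1.65, -2.26 and -1.81. S100A4 was lower in CMT-U229 on all of them. The mean was -1.58 ± 0.53 (SD, n = 5), or 2.98-fold lower in CMT-U229. Between P114 and CMT-U335 the values were -0.57, 0.55, -0.16, -0.27 and -0.69, with 4 below 0 and replicate 2 above it. Their mean of -0.23 ± 0.49 (SD, n = 5) was smaller than the spread.

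**Figure D1:**
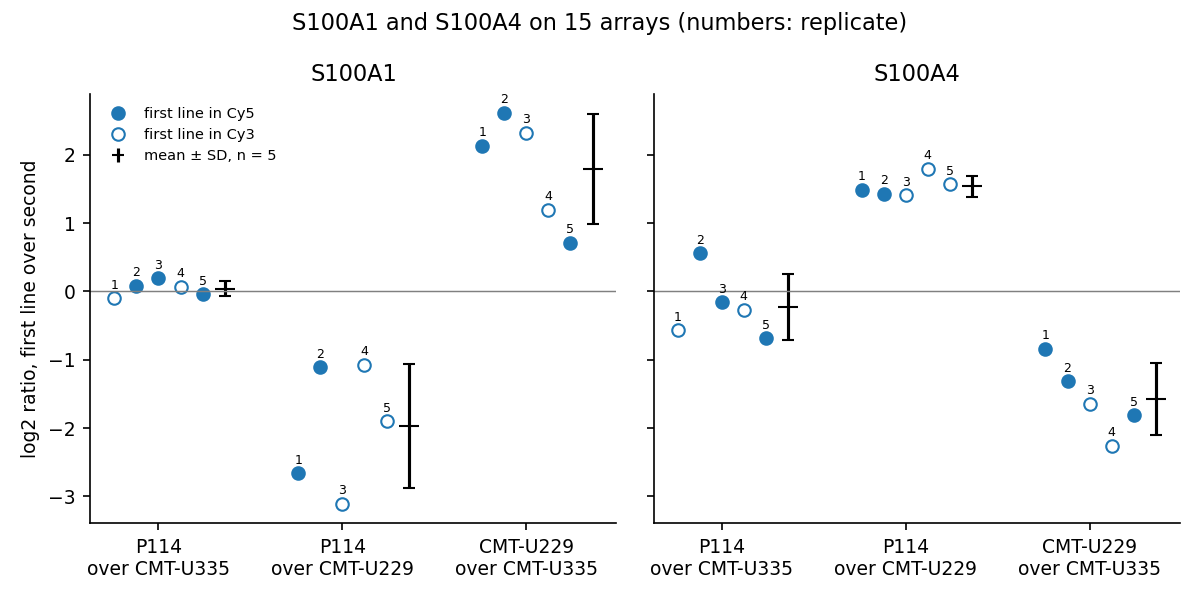
Log2 ratio (vertical axis) of S100A1 (left) and S100A4 (right) on each of 15 arrays, by pair of lines; points carry their replicate number, filled points have the first line in Cy5 and open points in Cy3, and bars give the mean ± SD over 5 arrays. In both pairs with CMT-U229 all points of a gene lie on 1 side of 0, on opposite sides for the 2 genes, whereas P114 over CMT-U335 centres near 0.

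The 2 genes also differed in how evenly they behaved. For S100A1 the SD stood at the 97.6 percentile of all genes in P114 over CMT-U229 (median SD 0.227), and at the 97.4 percentile (median SD 0.211) for CMT-U229 over CMT-U335. In P114 over CMT-U335 its SD stood at the 10.96 percentile. For S100A4 the steadiest pair was P114 over CMT-U229, at the 24.7 percentile of SD, and the others stood at 92.2 (P114 over CMT-U335) and 93.6 (CMT-U229 over CMT-U335). The values of S100A1 can also be read by apparent dye swap. In P114 over CMT-U229 the couple of replicates 1 and 3 averaged -2.89 and the couple of 2 and 5 averaged -1.51, with replicate 4 at -1.07, and the arrays within a couple lay 0.45 and 0.79 apart. In CMT-U229 over CMT-U335 the couple of 2 and 3 averaged 2.47 and that of 4 and 5 averaged 0.95, with gaps of 0.29 and 0.49 inside them and replicate 1 at 2.13. Couples were chosen for small differences within them over many genes, which favours this arrangement. Over the 3 values that averaging couples leaves, S100A1 was at -1.82 ± 0.95 (SD, n = 3) in P114 over CMT-U229. For CMT-U229 over CMT-U335 it was at 1.85 ± 0.80 (SD, n = 3). S100A4 was at 1.58 ± 0.19 and -1.45 ± 0.60 (SD, n = 3 each) in the same pairs.

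The arrays can also be read by dye order, with no test. With P114 in Cy5, S100A1 averaged -1.89 over 2 arrays of P114 over CMT-U229, and with P114 in Cy3 -2.03 over 3 arrays. The averages of CMT-U229 over CMT-U335 were 1.82 with CMT-U229 in Cy5 and 1.76 with it in Cy3. For S100A4 the means were 1.46 and 1.59 in P114 over CMT-U229, and -1.32 and -1.95 in CMT-U229 over CMT-U335, again with the first line in Cy5 given first. A dye effect common to all 15 arrays, a measure that did not serve to choose the genes, was estimated at 0.05 ± 0.17 (SE) for S100A1 and 0.14 ± 0.10 (SE) for S100A4. Neither passed the test (limma, adjusted p = 0.901 and 0.439), whereas 11.7% of all genes did.

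The 3 pairs form a closed loop, described here with no test of either gene because the gap uses the ratios by which they were chosen. The ratio of P114 over CMT-U335 can be read directly, or by adding the ratios of P114 over CMT-U229 and CMT-U229 over CMT-U335. For S100A1 the indirect value was -0.18, against 0.04 measured directly, a gap of -0.22 ± 0.49 (SE), which lay between -0.63 (without replicate 2) and 0.02 (without replicate 5) when the arrays of 1 replicate number were left out. For S100A4 the indirect value was -0.04, against -0.23 directly, a gap of 0.19 ± 0.30 (SE), between -0.07 (without replicate 1) and 0.34 (without replicate 2) in the same way. The standard errors exceed both gaps, so the loop says little about either gene. Over all genes limma called a gap for 0% (0 genes). At an unadjusted p under 0.05 stood 17 of 5246 genes. That is far below the share of 0.05 that well-calibrated p-values give where no gap exists. The standard errors of the gap may thus be too wide, so the lack of calls says little.

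A fit of the loop placed each line relative to the mean of the 3. For S100A1 the positions were -0.64 for P114, 1.26 for CMT-U229 and -0.61 for CMT-U335 (SE 0.13 each). The order was CMT-U229, then CMT-U335 and P114, and the last pair did not differ beyond its spread. For S100A4 they were 0.44 for P114, -1.04 for CMT-U229 and 0.60 for CMT-U335 (SE 0.08 each). CMT-U335 and P114 came first, again without a difference beyond their spread, and CMT-U229 came last. Within the loop S100A1 therefore covered 1.90 and S100A4 1.64 log2 units from the highest to the lowest line. The fit takes the 15 arrays as independent, so these SE may be too small if some arrays repeat the same RNA. It also takes a common spread for all pairs. The SD of S100A1 was 0.11 in P114 over CMT-U335, but 0.91 and 0.81 in the pairs with CMT-U229.

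**Figure D2:**
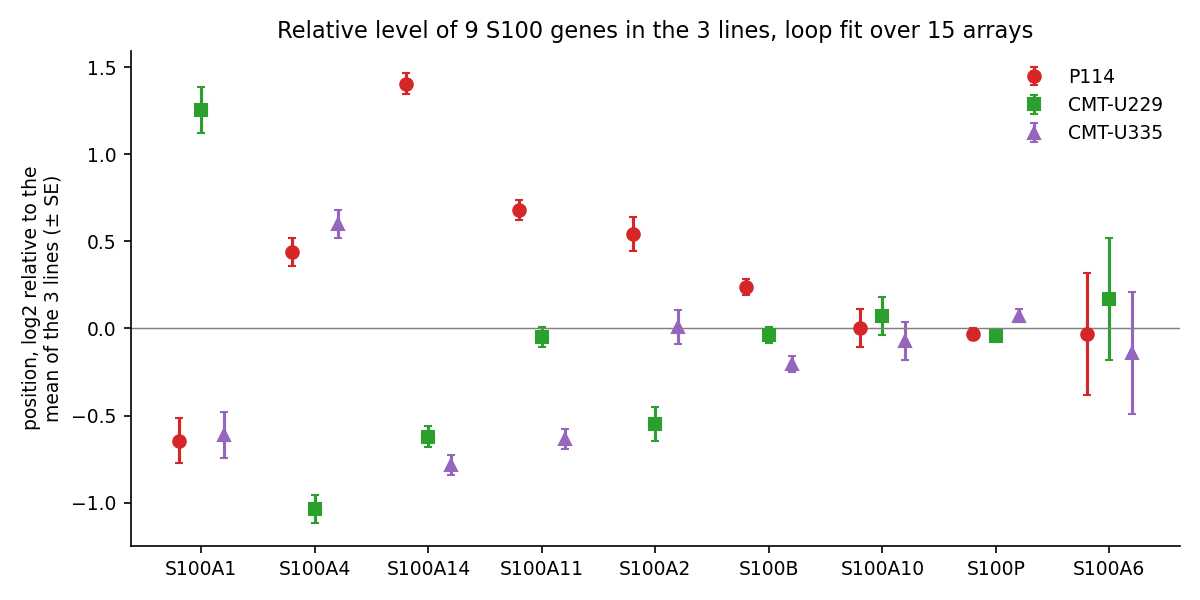
Position of P114 (circles), CMT-U229 (squares) and CMT-U335 (triangles) for 9 S100 genes, as log2 relative to the mean of the 3 lines with SE bars, from the loop fit over 15 arrays. CMT-U229 lies apart for S100A1 (1.26) and S100A4 (-1.04), and P114 is highest for S100A14, S100A11, S100A2 and S100B. The SE bars take the 15 arrays as independent.

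Of 18 other S100 genes looked for, 7 were measured, and in most of their calls P114 was the higher line. A gene was called where its limma adjusted p lay under 0.05. In P114 over CMT-U335, 4 of the 7 rose and none fell, where 22.3% of all genes were called, 7.89% higher and 14.4% lower in P114. The median of the 7 was 0.46, against -0.02 over all genes. S100A14, found mainly in epithelia, led with 2.01, 2.22, 2.47, 2.50 and 2.43, all high in P114. Its mean was 2.33 ± 0.21 (SD, n = 5), 5.01-fold higher in P114 (adjusted p = 2.47e-05). S100A11, which pairs with annexins at membranes, had 1.27, 1.58, 1.78, 1.44 and 0.87 and averaged 1.39 ± 0.35 (SD, n = 5, limma adjusted p = 0.000467). S100A2, known from basal epithelial cells, was at 0.59 ± 0.38 (SD, n = 5, limma adjusted p = 0.0216). S100B, best known from glia and melanocytes, was at 0.46 ± 0.23 (SD, n = 5, limma adjusted p = 0.0148). S100A2 lost this call with the couples averaged (adjusted p = 0.0775), in a fit over all pairs, and without replicate 1, 3 or 5. Without replicate 3 S100B lost it too, leaving 2 genes called.

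In P114 over CMT-U229, 3 of the 7 rose and none fell, where 7.30% of all genes were called, 3.32% higher and 3.98% lower in P114, and the median of the 7 was 0.25 against -0.01 over all genes. S100A14 was again the highest, at 1.98, 2.24, 2.10, 1.27 and 1.87, with a mean of 1.89 ± 0.37 (SD, n = 5, limma adjusted p = 0.000438). S100A2 averaged 1.03 ± 0.68 (SD, n = 5, limma adjusted p = 0.0447) and S100A11 0.65 ± 0.25 (SD, n = 5, limma adjusted p = 0.0125). S100A2 lost its call when any 1 of the 5 arrays was left out, and with the couples averaged S100A14 alone of the 7 was called. Between CMT-U229 and CMT-U335 S100A11 alone of the 7 passed, at 0.51 ± 0.24 (SD, n = 5, limma adjusted p = 0.0148), where 17.3% of all genes were called, 8.77% higher and 8.58% lower in CMT-U229. It lost the call without replicate 5 and with the couples averaged (adjusted p = 0.056). S100A14 stood at 0.03 ± 0.18 (SD, n = 5) in this pair, and S100A2 at -0.61 ± 0.48 (SD, n = 5, limma adjusted p = 0.0524), with all 5 arrays below 0. S100A2 was called there with arrays scaled to the same spread, in the loop fit and without replicate 2 (-0.76, adjusted p = 0.0359).

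S100B was not called in the other pairs, at 0.25 ± 0.22 in P114 over CMT-U229 and 0.15 ± 0.23 in CMT-U229 over CMT-U335 (SD, n = 5 each), and S100P, S100A6 and S100A10 were called in none. S100P, first found in placenta, stayed between -0.11 and 0.01 as a mean. S100A6, also named calcyclin, swung from -4.40 to 1.73 on the arrays of P114 over CMT-U335, with an SD of 2.51, so its ratios could not place the lines. S100A10, the partner of annexin A2, had 4 probes that did not behave alike. One probe ran in P114 over CMT-U229 from -3.78 to 4.23 with an SD of 3.06, whereas another stood at -0.01 ± 0.09 (SD, n = 5). S100A1, S100A4 and the 6 other S100 genes measured had 1 probe each, so no second probe was at hand to compare.

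S100A1 and S100A4 lie on dog chromosome 7 with 5 protein-coding genes between them in the RefSeq table of assembly UU_Cfam_GSD_1.0, 2 of which, S100A14 and S100A2, were measured. In gene order the measured run is S100A1, S100A14, S100A2, S100A4 and S100A6, of which S100A6 was too variable to place. The means along the run in P114 over CMT-U229 were -1.97, 1.89, 1.03, 1.54 and 0.17. S100A14, S100A2 and S100A4 were thus all higher in P114 and S100A1 was lower. For CMT-U229 over CMT-U335 the means were 1.79, 0.03, -0.61, -1.58 and 0.68, with S100A2 and S100A4 both on the negative side. S100A1 and S100A4 were chosen by the pairs with CMT-U229, so their opposite signs there are description only. In P114 over CMT-U335 the means were 0.04, 2.33, 0.59, -0.23 and -0.26. There S100A14 lay furthest from 0 and S100A1 lay near 0. Of the stretch of 47 genes that reaches 20 protein-coding genes beyond S100A1 and S100A4 on each side, 22 were measured. Leaving out S100A1 and S100A4, 2 of 20 rose and 3 fell in P114 over CMT-U335, a share close to the 22.3% of all genes called in that pair. They were S100A14 and S100A2 above, and HDHD2 (-0.46 ± 0.20, SD), SMAD2, a transducer of TGF-beta signals (-0.39 ± 0.19, SD), and SNAPIN, which was named after its value was seen (-0.38 ± 0.08, SD). S100A14, S100A2 and S100A6 are counted in this list as well as among the S100 genes. Of the 20, S100A14 and S100A2 alone rose in P114 over CMT-U229 and none fell, where 3.32% of all genes were called higher. In CMT-U229 over CMT-U335 the ribosomal gene RPS27 rose (0.42 ± 0.18, SD), and IER3IP1 (-0.36 ± 0.20, SD) and ATP5F1A, a subunit of the mitochondrial ATP synthase (-0.34 ± 0.21, SD), fell, again close to the 17.3% of all genes called. The medians of these 20 genes were -0.08, 0.13 and -0.09 in the 3 pairs in the order given. SMAD2 lost its call without replicate 1 or 4, RPS27 without replicate 2, IER3IP1 without 1, 2, 4 or 5 and ATP5F1A without 2, 3, 4 or 5. HDHD2 lost its call in the loop fit (-0.26, adjusted p = 0.153). With the couples averaged SMAD2 (adjusted p = 0.0531), RPS27 (0.073), IER3IP1 (0.117) and ATP5F1A (0.172) were not called either. CHTOP, next to S100A1, was too variable to place, with an SD of 3.82 in P114 over CMT-U229.

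**Figure D3:**
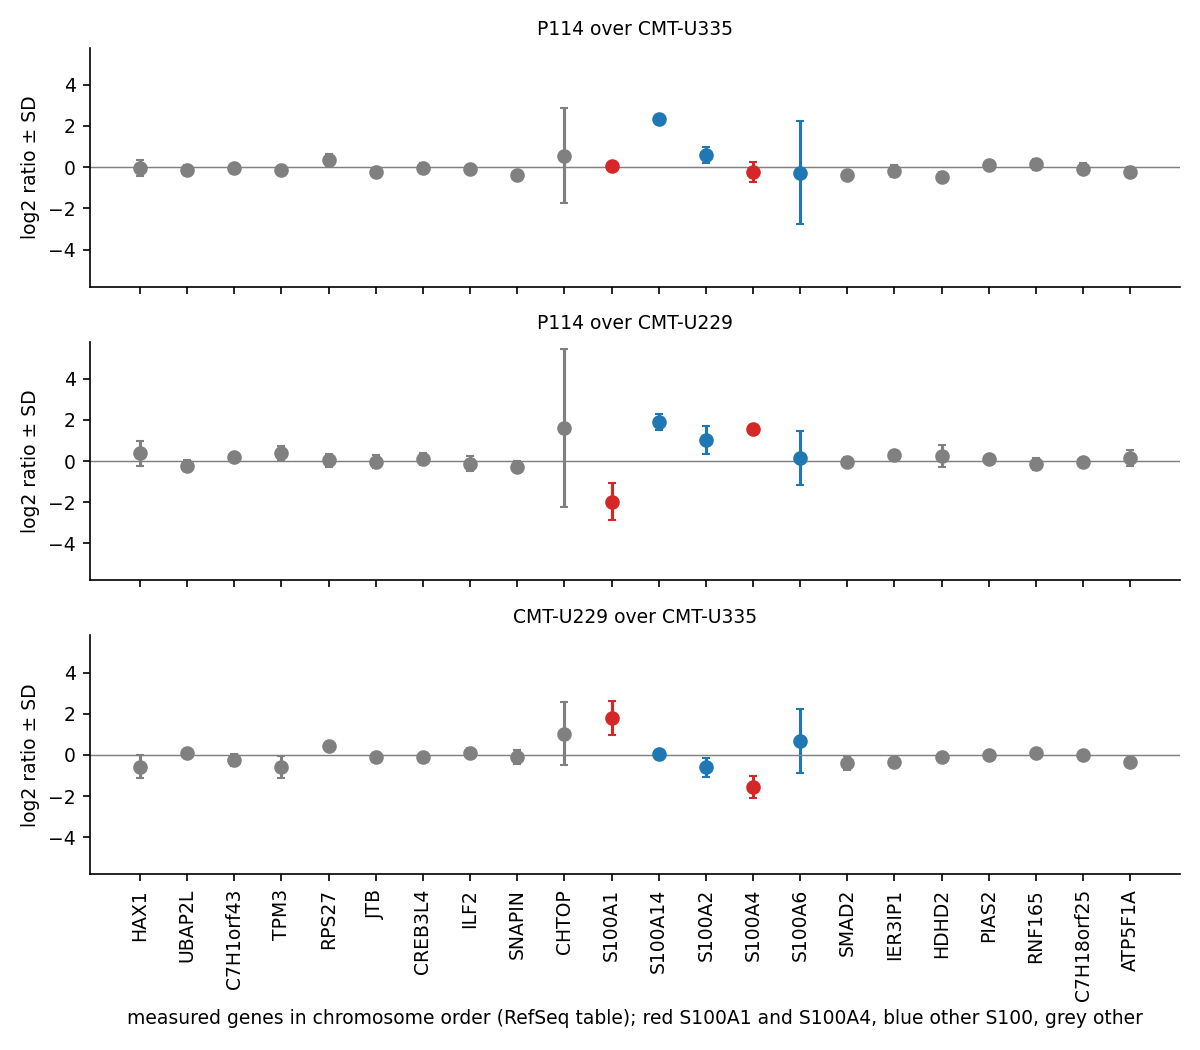
Mean log2 ratio ± SD over 5 arrays (vertical axis) of the 22 measured genes around S100A1 and S100A4 in chromosome order, 1 panel per pair; red marks S100A1 and S100A4, blue other S100 genes and grey other genes. The S100 genes differ from one another, and apart from CHTOP the flanking genes have means between -0.59 and 0.42 in every pair.

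Genes of proteins that S100A4 is known to bind were called in small numbers in each pair. Of 8 measured partners 3 fell in P114 over CMT-U335 and none rose (median of the 8, -0.13), where 14.4% of all genes fell and 7.89% rose: the tropomyosins TPM2 (-0.90 ± 0.29, SD) and TPM4 (-0.62 ± 0.11, SD), which wrap actin filaments, and MYH9, the heavy chain of non-muscle myosin (-0.56 ± 0.18, SD). In CMT-U229 over CMT-U335, 3 fell and 1 rose (median -0.70), where 8.58% of all genes fell and 8.77% rose. TPM4 was at -1.22 ± 0.63 (SD), TPM1 at -0.91 ± 0.40 (SD), MYH9 at -0.81 ± 0.50 (SD) and the scaffold IQGAP1 at 0.65 ± 0.35 (SD). Against CMT-U229, TPM2 (-0.75 ± 0.26, SD) and IQGAP1 (-0.58 ± 0.20, SD) fell in P114 and none rose (median -0.02), where 3.98% of all genes fell. Neither was called with the couples averaged (adjusted p = 0.0881 for TPM2 and 0.0626 for IQGAP1). MYH9, the best known partner, was lower in CMT-U229 than in CMT-U335, as S100A4 was. It lost that call without replicate 1 or 5 and with the couples averaged (adjusted p = 0.0773). In the other pairs MYH9 did not follow S100A4. It was also lower in P114 than in CMT-U335, where the ratios of S100A4 crossed 0, and was not called in P114 over CMT-U229. IQGAP1 lost its call without replicate 2 in P114 over CMT-U229 and without 2 or 3 in CMT-U229 over CMT-U335, where it was not called with the couples averaged either (adjusted p = 0.0606).

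Of 18 measured partners of S100A1 none rose in any pair. Of all genes 7.89% rose and 14.4% fell in P114 over CMT-U335, and 3.32% rose and 3.98% fell in P114 over CMT-U229. In CMT-U229 over CMT-U335 8.77% rose and 8.58% fell. With such shares the absence of a rise among 18 genes says little. In both pairs with CMT-U335 the share called was close to that of all genes (22.3% in P114 over CMT-U335 and 17.3% in CMT-U229 over CMT-U335). In P114 over CMT-U335, 4 fell: the immunophilin PPID (-0.84 ± 0.18, SD), PGM1 of glycogen metabolism (-0.54 ± 0.32, SD), the actin-capping subunit CAPZA1 (-0.54 ± 0.12, SD) and the mitochondrial import receptor TOMM70 (-0.41 ± 0.20, SD). A single partner fell in P114 over CMT-U229, the glycogen phosphorylase PYGL (-1.12 ± 0.38, SD), in the same direction as S100A1, where 7.30% of all genes were called. It was not called with the couples averaged (adjusted p = 0.0935). Another 3 calls fell in CMT-U229 over CMT-U335, CAPZA1 (-0.45 ± 0.18, SD), PPID (-0.41 ± 0.16, SD) and ATP5F1A. PGM1 lost its call without replicate 1 or 3, TOMM70 without 3, and PPID in CMT-U229 over CMT-U335 without 2, 3 or 5. With the couples averaged PGM1 (adjusted p = 0.0893) and all 3 partners called in CMT-U229 over CMT-U335 (CAPZA1 0.0651, PPID 0.13 and ATP5F1A 0.172) were not called. The medians of this list stayed between -0.11 and -0.04.

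Annexins, which bind membranes and several S100 proteins, had 2 of 8 raised and 2 fallen in P114 over CMT-U335, where 22.3% of all genes were called. ANXA1 was at 0.46 ± 0.19 (SD) and ANXA7 at 0.42 ± 0.30 (SD), and ANXA6 was at -0.44 ± 0.21 (SD) and ANXA11 at -0.41 ± 0.23 (SD). None of the 8 was called by limma in P114 over CMT-U229 (0 at an unadjusted p under 0.05), where 7.30% of all genes were called. With 8 genes that share leaves little room for calls. ANXA11 alone fell in CMT-U229 over CMT-U335 (-0.51 ± 0.32, SD), where 17.3% of all genes were called. Apart from ANXA1 each of these annexin calls was lost without some array, namely ANXA6 without replicate 3, ANXA7 without 1, 3 or 5, and ANXA11 without 1, 2 or 3 in P114 over CMT-U335 and without 1, 2, 4 or 5 in CMT-U229 over CMT-U335. The same calls were lost with the couples averaged (adjusted p from 0.0654 to 0.11).

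Of 29 other EF-hand proteins 3 rose and 5 fell in P114 over CMT-U335, a share near the 22.3% of all genes called, led by the actin bundler PLS3 (-2.25 ± 0.47, SD) and the myosin light chain MYL9 (-1.05 ± 0.38, SD). RCN1, a calcium binder of the secretory pathway (0.76 ± 0.27, SD), and the matrix protein SPARC (0.56 ± 0.47, SD) were among those that rose. Against CMT-U229, SPARC (1.33 ± 0.60, SD) and RCN1 (0.82 ± 0.39, SD) rose in P114 and MYL9 (-0.71 ± 0.40, SD) fell, where 7.30% of all genes were called. None of these 3 was called with the couples averaged (adjusted p = 0.114 for SPARC, 0.103 for RCN1 and 0.144 for MYL9). With CMT-U229 over CMT-U335, 1 rose, CHP1 (0.90 ± 0.14, SD), and 3 fell, PLS3 (-2.55 ± 0.34, SD), PDCD6 (-0.83 ± 0.48, SD) and MYL12B (-0.46 ± 0.30, SD), a share near the 17.3% of all genes. The medians of the EF-hand list lay between -0.02 and 0.05, close to those of all genes. Of 11 genes for calcium pumps, channels and stores none was called by limma in either pair with P114 (2 at an unadjusted p under 0.05 against CMT-U335 and 3 against CMT-U229). Of all genes 22.3% were called in P114 over CMT-U335 and 7.30% in P114 over CMT-U229. With 11 genes the share in the latter pair leaves little room for calls. Between CMT-U229 and CMT-U335, 3 rose and none fell in CMT-U229, where 8.77% of all genes rose: the store proteins CALR (0.78 ± 0.29, SD) and CANX (0.43 ± 0.24, SD) and the calcium leak channel TMCO1 (0.75 ± 0.24, SD). Calls were lost without some array for SPARC in P114 over CMT-U335 (without 2, 3, 4 or 5), for RCN1 (2, 3 or 5) and MYL9 (1, 3 or 5) in P114 over CMT-U229, and for PDCD6 (2, 3 or 5), MYL12B (1, 2, 4 or 5) and CANX (1, 2, 3 or 5) in CMT-U229 over CMT-U335. With the couples averaged SPARC in P114 over CMT-U335 (adjusted p = 0.102) and PDCD6 (0.152), MYL12B (0.0776), CALR (0.0542) and CANX (0.083) in CMT-U229 over CMT-U335 were not called.

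S100A4 is used as a marker of mesenchymal cells, and other such markers were set beside it. In P114 over CMT-U229, 4 of 8 rose and none fell (median 0.80), where 7.30% of all genes were called, 3.32% higher: COL1A2 (2.06 ± 0.88, SD), SPARC, the proteoglycan DCN (0.90 ± 0.59, SD) and COL3A1 (0.77 ± 0.22, SD). With the couples averaged none of these 4 was called, with adjusted p from 0.0548 for COL3A1 to 0.213 for DCN, and DCN also lost its call without replicate 2, 3, 4 or 5. In CMT-U229 over CMT-U335, 3 fell and none rose (median -0.57), where 8.58% of all genes fell, namely COL1A2, DCN (-0.81 ± 0.28, SD) and the transcription factor ZEB1 (-0.57 ± 0.18, SD). P114 over CMT-U335 was mixed, with 3 raised and 2 fallen (median 0.18), where 7.89% of all genes rose and 14.4% fell. FN1, which encodes fibronectin, was at 1.19 ± 0.56 (SD) and COL3A1 at 0.69 ± 0.28 (SD, not called with the couples averaged, adjusted p = 0.0521). SPARC rose as well (0.56 ± 0.47, SD, not called with the couples averaged, adjusted p = 0.102), and COL1A2 and ZEB1 (-0.91 ± 0.34, SD) fell. S100A4 and COL1A2 were thus both lowest in CMT-U229, but COL1A2 separated P114 from CMT-U335 and the ratios of S100A4 for that pair crossed 0.

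The epithelial markers measured were lowest in CMT-U335. The shares of all genes called higher were 7.89% in P114 over CMT-U335, 3.32% in P114 over CMT-U229 and 8.77% in CMT-U229 over CMT-U335, against which the next counts can be read. All 3 measured were higher in P114 than in CMT-U335, including KRT8 (2.46 ± 0.58, SD). All 3 were also higher in CMT-U229 than in CMT-U335, with KRT8 at 2.56 ± 0.65 (SD). KRT18 and EPCAM were higher in P114 than in CMT-U229 (2.41 ± 0.38 and 1.80 ± 0.22, SD), but KRT8 was not called in that pair. S100A4 is also made by leukocytes. Of 5 leukocyte markers CD14 rose in P114 over CMT-U229 (0.50 ± 0.05, SD), and the list median was -0.03. None was called by limma in CMT-U229 over CMT-U335 (0 at an unadjusted p under 0.05), where 17.3% of all genes were called. In P114 over CMT-U335 CD14 was at 0.36 ± 0.24 (SD) and LCP1 at -0.52 ± 0.10 (SD), of which CD14 lost its call without replicate 2, 3, 4 or 5, where 22.3% of all genes were called. With the couples averaged CD14 was not called in either pair with P114 (adjusted p = 0.0611 against CMT-U229 and 0.0959 against CMT-U335). Of 7 markers of muscle and nerve, the tissues where S100A1 and S100B are best known, none rose in any pair. In P114 over CMT-U229 none was called by limma (1 at an unadjusted p under 0.05), where 7.30% of all genes were called. MYL2 fell in P114 over CMT-U335 (-0.50 ± 0.28, SD, not called without replicate 1) and in CMT-U229 over CMT-U335 (-0.75 ± 0.33, SD, adjusted p = 0.0548 with the couples averaged), where 14.4% and 8.58% of all genes fell. In that last pair S100A1 was higher in CMT-U229. The part of other cell types in the ratios of S100A1 and S100A4 was not tested.

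The genes whose ratios over the 15 arrays lay closest to those of S100A1, by root mean square difference in log2 units among 5244 others, were CYBRD1 (0.493), CITED1 (0.521), MYLK (0.638), CD59 (0.649) and SLC35F1 (0.735), where the median gene stood at 1.69. CYBRD1 encodes a membrane reductase for iron, CITED1 a coactivator of transcription, MYLK the kinase of the myosin light chain and CD59 an inhibitor of complement. All 5 were lower in P114 than in CMT-U229, by means between -2.03 (MYLK) and -1.34 (CD59), and higher in CMT-U229 than in CMT-U335, by means between 1.45 (CD59) and 2.22 (MYLK). For S100A4 the closest were CMBL (0.412), PGRMC2 (0.441), SERPINF1 (0.554), GLRX (0.569) and COL4A2 (0.635), with the median gene at 1.36. SERPINF1 encodes a secreted inhibitor of vessel growth, GLRX a glutaredoxin and COL4A2 a collagen of basement membranes. Their means lay between 0.98 and 1.66 in P114 over CMT-U229, and between -1.98 and -1.36 in CMT-U229 over CMT-U335. The likeness was looser in P114 over CMT-U335, where the ratios of S100A4 crossed 0. There COL4A2 (-0.87 ± 0.32), GLRX (-0.69 ± 0.18) and PGRMC2 (-0.56 ± 0.32, SD) were lower in P114. SERPINF1 (-0.43 ± 0.48, SD) and CMBL (0.18 ± 0.68, SD) stayed within their spread.

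**Figure D4:**
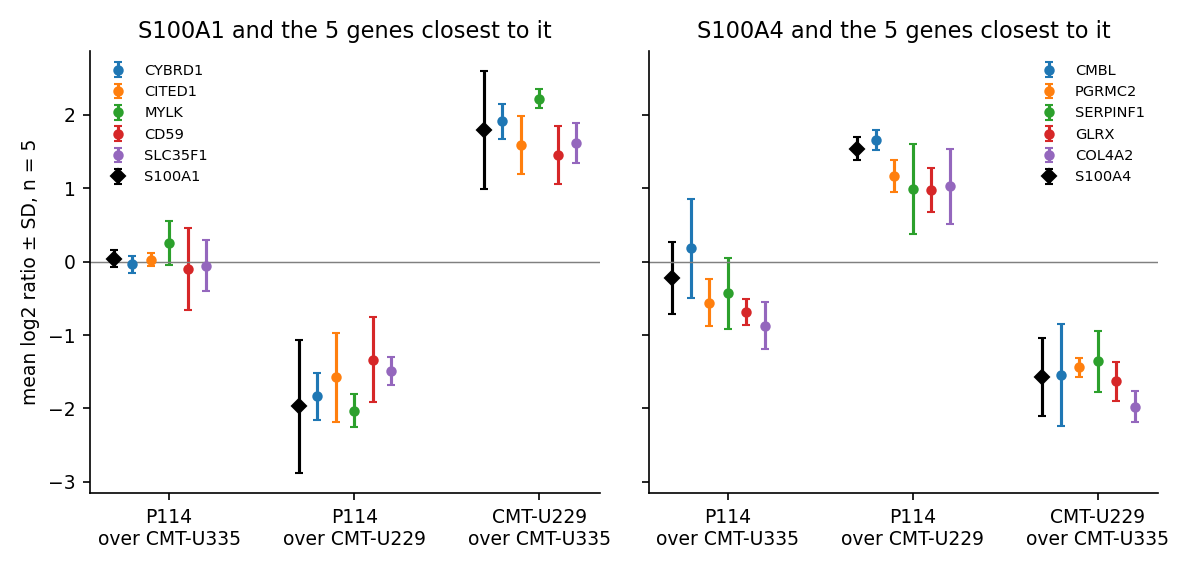
Mean log2 ratio ± SD over 5 arrays by pair of lines for S100A1 (left) and S100A4 (right), black diamonds, and for the 5 genes closest to each over 15 arrays. CYBRD1 (-1.84) and S100A1 (-1.97) lie close together in P114 over CMT-U229, as do CMBL (1.66) and S100A4 (1.54).

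The mirror image was looked at in the same way. With the sign of S100A1 turned, the closest genes were TACC2 (0.773), RRAS2 (0.799), S100A4 itself (0.916), PGRMC2 (0.924) and EPDR1 (0.983). With the sign of S100A4 turned they were SLC35F1 (0.413), RTN4 (0.490), ACYP2 (0.511), CYBRD1 (0.530) and SLC25A33 (0.554). SLC35F1 and CYBRD1 thus stood near S100A1 and near the mirror image of S100A4, and PGRMC2 near S100A4 and near the mirror image of S100A1. All these points share arrays and lines, so the distances describe likeness on these 15 arrays only. Both members were chosen by their ratios on these arrays. The place of S100A4 near the mirror image of S100A1 therefore follows at least in part from that choice.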

How the data were processed

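Total RNA of lines near confluence was amplified by T7 transcription and labelled with Cy3 or Cy5, as the labels' protocols state. The deposited values are log2 ratios between dyes; the authors normalized them and took logs, according to the series design. Normalization method, log base and numerator are not stated in the sources used here. Base 2 was assumed because the largest absolute value, 12.43, would be 249732-fold on a natural log scale, more than the 65536 levels of a 16-bit image. Spot intensities were not analysed here, so how far a gene lay above background is unknown, and precision rests on the number of arrays. Of 22176 probes 7694 had 1 symbol, 0 had several and 14482 had none and stay unnamed. For 7340 probes the symbol was taken from RefSeq (UU_Cfam_GSD_1.0) by Entrez identifier. Arrays were turned to the order of their pair by their dyes, and probes averaged per gene.

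Each pair was fitted with limma 3.58.1 in R 4.3.3 (mean of 5 arrays against 0, two-sided, Benjamini-Hochberg over 5246 genes, threshold 0.05, at least 3 arrays with a value). This stands in place of SAM, which the series design names. Dye effect and loop closure were fitted over all 15 arrays. Members and lists were chosen with earlier results of these data known. Named genes were both members, every S100 gene, up to 4 called members of each list and pair, the 5 genes closest to each member, and EPCAM, KRT18 and COL1A2. Couples of arrays that look like dye swaps were taken from the split with the smallest share of variation within couples (genes with SD above 0.5 and dye effect under 0.1). The tests were first tried on simulated arrays. Correlations between arrays gave no sign that replicate numbers pair arrays across the pairs of lines, but dye effects were left in them. Alternatives are in the closing section.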

Additional observations from a re-analysis of the deposited data

How the results depend on the processing

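The ratios of S100A1 and S100A4 were recomputed under array medians at 0, equal spread between arrays, a dye term and apparent dye swaps averaged. The replicate number as a block, a fit over all pairs, a loop fit and the median array were run too. All values stayed within 1 SD between arrays of the main value. That is a loose measure for S100A1, whose SD was 0.91 in P114 over CMT-U229 and 0.81 in CMT-U229 over CMT-U335. The block and the fit over all pairs left each mean unchanged by design. Array medians already lay between -0.007 and 0.013, so setting them to 0 could move little. S100A1 ranged between -2.09 and -1.82 in P114 over CMT-U229, between 1.79 and 2.13 in CMT-U229 over CMT-U335, and with each array left out from -2.20 to -1.69 and from 1.59 to 2.07. S100A4 ranged from 1.47 to 1.68 and from -1.65 to -1.45, and with each array left out from 1.47 to 1.57 and from -1.76 to -1.40. For P114 over CMT-U335 the values near 0 ranged from -0.03 to 0.06 for S100A1 and from -0.27 to -0.10 for S100A4, and with each array left out from 0.00 to 0.07 and from -0.42 (without replicate 2) to -0.11 (without replicate 5). Each member has 1 probe, so fitting probes singly gave nothing further. The loop gaps ranged from -0.63 to 0.02 for S100A1 and from -0.07 to 0.34 for S100A4. The dye effect of neither gene was called under any alternative run.

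Counts moved more. Genes called numbered 1169 in P114 over CMT-U335, 383 in P114 over CMT-U229 and 910 in CMT-U229 over CMT-U335. They became 1757, 1056 and 1445 in the loop fit, and 642, 159 and 470 at an adjusted p under 0.01. P114 over CMT-U229 gave 79 with swaps averaged and 650 in a fit over all pairs, and CMT-U229 over CMT-U335 gave 410 with swaps averaged. With each array left out they ranged from 835 to 1031, from 202 to 408 and from 571 to 863. The lowest counts came without replicate 1 in P114 over CMT-U229 (202) and without replicate 5 in CMT-U229 over CMT-U335 (571). Called list members numbered 35, 15 and 25. At 0.01 they were 21, 8 and 13. The loop fit gave 34 in P114 over CMT-U229 and 38 in CMT-U229 over CMT-U335, and averaged swaps gave 3 and 11. Leaving arrays out gave 25 to 34, 11 to 16 and 16 to 23. Other S100 genes called numbered 4, 3 and 1, and at 0.01 they were 2, 1 and 0. With swaps averaged P114 over CMT-U229 gave 1 and CMT-U229 over CMT-U335 gave 0, and the last pair gave 2 with equal spread or in the loop fit. Leaving arrays out gave 2 to 4, 2 to 2 and 0 to 2. Among 71 calls of named genes, 27 were lost without some array, 35 with swaps averaged (3 values a pair, fewer degrees of freedom) and 9 with a dye term, and 0 changed direction. With the replicate number as a block 1172, 515 and 920 genes were called, and S100A2 in P114 over CMT-U335 lost its call (adjusted p = 0.117). Correlations gave that block no backing, as 1 of 15 arrays correlated best with its own number. Dye effects were left in these correlations, so they cannot settle whether same-numbered arrays share an RNA. Background correction and a filter on dim spots need intensities and were not run.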
